A study of Mus musculus with 6 samples.

Results

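Polycomb group proteins keep chosen genes silent through modified histones. Polycomb repressive complex 2 (PRC2) methylates a lysine of histone H3 through the enzyme EZH1 or EZH2, which works only together with SUZ12 and EED. Polycomb repressive complex 1 (PRC1) attaches ubiquitin to histone H2A through RING1 or RNF2 (RING1B), and its CBX subunits bind the mark that PRC2 leaves. In the mouse incisor, PRC1 is known as a regulator of the dividing progenitors, and the Cdkn2a locus and the Hox genes are classic targets of both complexes. The 9 genes described here were Ring1, Rnf2, Bmi1, Cbx2, Cbx7, Cbx8, Ezh1, Ezh2 and Suz12, taken by symbol from the 23718 genes of the deposited table. All 9 were listed, and all 9 had a mean value of at least 1 and entered the test.

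RNA was measured in the incisor, which grows throughout life, of mice aged 1 month and labelled as strain C57BL/6, whereas the study's methods give a mixed background. Mesenchymal stem cell (MSC) samples were cut by laser capture microdissection from Gli1-CreER;tdT mice, and transit amplifying cell (TAC) samples, the rapidly dividing progeny, from Axin2-CreER;tdT mice, with 3 samples in each group. In both genotypes tamoxifen, given 1 day before collection, switched on a red reporter in cells that used the driver gene, and all mice carried a Cre driver and the reporter and received tamoxifen. The groups therefore differ in driver as well as in region, and capture from sections takes neighbouring cells along. In such bulk RNA, fewer cells of a type and less RNA per cell cannot be told apart.

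The libraries held between 20203159 and 108156380 estimated reads, and replicate 3 of both groups stood apart. It was the deepest library of its group, yet it had no read for 43.1% of the listed genes in MSC and 28.3% in TAC, against 6.89 to 8.36% in the other 4 libraries. Mitochondrial ribosomal RNA took 0.236% and 0.112% of its reads, against 8.28 to 9.07%. Replicates 1 and 2 were much alike, with a median chi-square per gene of 4.17 in MSC and 3.28 in TAC, against 167 to 272 for pairs with replicate 3, and were not identical within counting noise. Values for replicates 1 and 2 and for replicate 3 are therefore given beside the pooled ones. A value is a normalized read number that is not divided by gene length, and the difference is TAC minus MSC of log2(value + 1).

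Among the members, Ezh2 and Suz12 had a start region that held an E2F motif, the element through which E2F factors control many S-phase genes. The motif was searched on both strands as TTTCGCGC, TTTGGCGC, TTTCCCGC or TTTGCCGC in RefSeq promoters of build GRCm38.p6, 250 bases before to 50 bases after each start. It was present in 2 of the 8 members with an entry, in 536 of 13009 genes of the deposited table (4.12%) and in 7 of 16 S-phase genes (43.8%). It was present in 1 of 10 mitosis genes, 0 of 16 other PRC1 genes, 1 of 10 other PRC2 genes (Phf19), 0 of 6 genes of the Polycomb deubiquitinase complex and 0 of 8 trithorax-type genes with an entry. The 3 sequences shown are those of both members with a match and of Ezh1, the paralogue of Ezh2, without one. Each is written 5′ to 3′ along the gene and covers 250 bases before and 30 bases after the start, with the motif in capitals. The motif of Ezh2 began 3 bases after the start, and that of Suz12 began 219 bases before it. The windows lie at chr6:47595001-47595280 on the minus strand, chr11:79992856-79993135 on the plus strand and chr11:101226434-101226713 on the minus strand, in this order.
Ezh2: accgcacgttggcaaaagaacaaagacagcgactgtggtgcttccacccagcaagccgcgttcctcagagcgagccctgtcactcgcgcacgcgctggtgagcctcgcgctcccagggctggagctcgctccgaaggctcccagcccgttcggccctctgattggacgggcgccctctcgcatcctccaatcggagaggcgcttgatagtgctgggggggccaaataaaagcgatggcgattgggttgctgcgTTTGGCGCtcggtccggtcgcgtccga
Suz12: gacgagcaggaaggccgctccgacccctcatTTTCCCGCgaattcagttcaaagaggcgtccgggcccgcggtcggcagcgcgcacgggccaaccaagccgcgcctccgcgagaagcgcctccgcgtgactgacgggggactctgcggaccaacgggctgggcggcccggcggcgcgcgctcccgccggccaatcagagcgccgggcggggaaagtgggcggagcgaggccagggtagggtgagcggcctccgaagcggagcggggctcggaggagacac
Ezh1: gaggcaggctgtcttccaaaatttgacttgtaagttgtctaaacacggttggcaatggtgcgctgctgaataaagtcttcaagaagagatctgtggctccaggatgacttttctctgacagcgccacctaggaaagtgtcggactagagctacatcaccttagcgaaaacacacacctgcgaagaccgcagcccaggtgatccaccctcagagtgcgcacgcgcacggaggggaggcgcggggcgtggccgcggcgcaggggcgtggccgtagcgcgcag
The RefSeq start of Ezh2 lies inside the gene span of the deposited table, whereas those of Suz12 and Ezh1 coincide with its edge. No other member with an entry (Ring1, Rnf2, Bmi1, Cbx7 and Cbx8) held these letters in its window. A match is a description of the sequence, and binding was not measured.

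With all 6 libraries on the log2(value + 1) scale, Cbx7 had the largest difference of the 9 genes (Rnf2 did by voom and in replicate 3), and it was higher in every MSC library than in any TAC library, while Cbx2 stood the other way round. Ezh1 was also higher in all MSC libraries, and Suz12 in all TAC libraries. With all 6 libraries in the limma fit, 0 of the 9 members passed an adjusted p of 0.05 (limma with Benjamini-Hochberg adjustment over 15391 genes), and 65 genes or 0.422% of all did. A limma voom fit on estimated reads also called 0 members. At an unadjusted p under 0.05, 1 member was higher in TAC (Cbx2) beside 5.42% of all genes, and 2 were higher in MSC (Cbx7 and Ezh1) beside 6.43%. The groups did not overlap for 2 members higher in TAC, beside 12.3% of all genes, and for 2 higher in MSC, beside 12.2%. The median difference of the members was −0.08, with 4 above and 5 below 0, and that of all genes was 0.03.

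**Figure D1:**
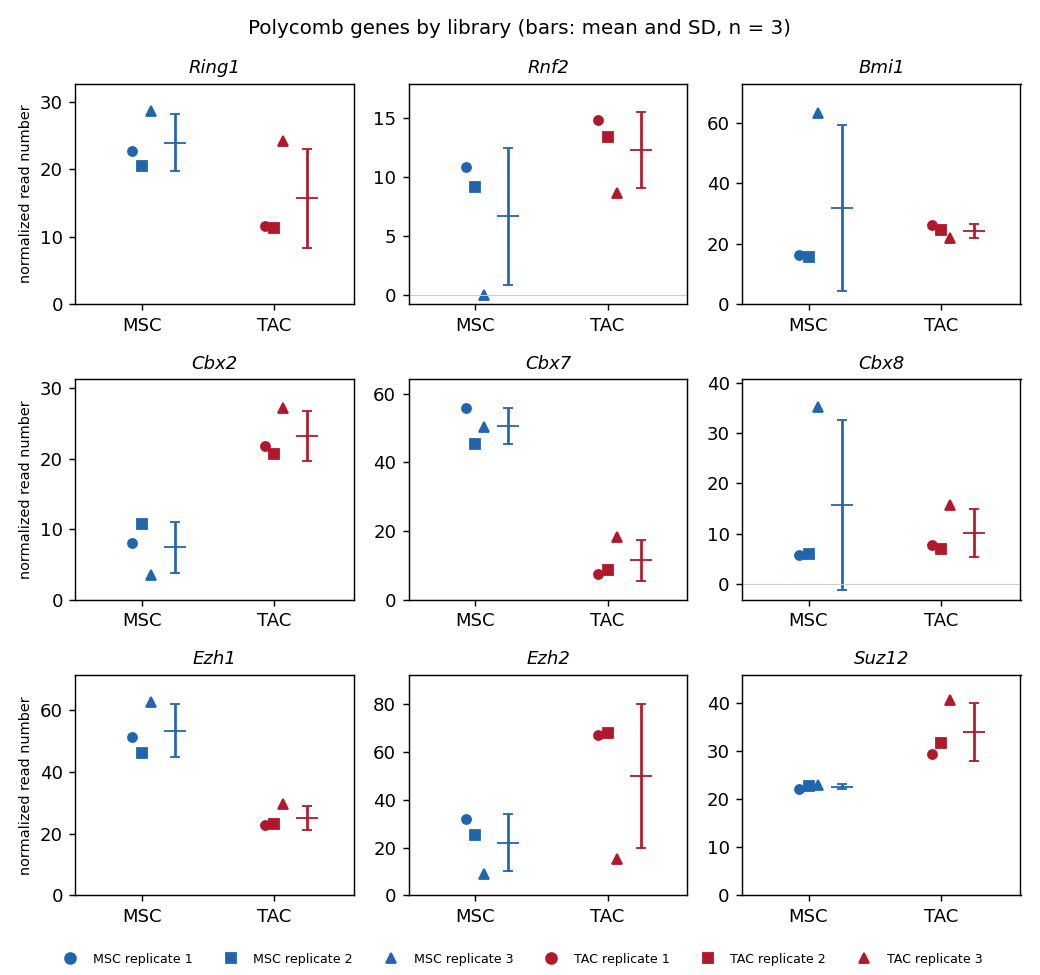
Normalized read number (linear axis, own scale for each gene) of the 9 Polycomb genes in 3 MSC (blue) and 3 TAC (red) libraries, with circles, squares and triangles for replicates 1, 2 and 3 and bars for the mean and SD. Cbx7 and Ezh1 lie higher in all MSC libraries and Cbx2 and Suz12 in all TAC libraries, while replicate 3 lies far from the other MSC libraries in Bmi1 and Cbx8 and from the other TAC libraries in Ezh2.

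The CBX proteins are the PRC1 subunits that read methylated histone H3, and a canonical PRC1 carries one of them. Cbx7 (chr15:79915807-79971119, mm10, minus strand) measured 55.8, 45.3 and 50.2 in the MSC libraries, listed by replicate from 1 to 3, and 7.51, 8.63 and 18.3 in the TAC libraries. The group means were 50.4 ± 5.22 and 11.5 ± 5.91 (SD, n = 3), 4.40 times higher in MSC. The lowest MSC library lay well above the highest TAC library, which was replicate 3. The difference was −2.14 (SE 0.38, 95% interval −3.04 to −1.24), with an adjusted p of 0.0885 by limma. Replicates 1 and 2 gave −2.50 and replicate 3 gave −1.41, the same direction in both. Cbx7 passed with the library set (replicates 1 and 2, or replicate 3) as a batch term (adjusted p = 0.0100 by limma) and without TAC replicate 3 (adjusted p = 0.0499 by limma), and over all alternatives its adjusted p ran from 1.71e-06 (replicates 1 and 2) to 0.418. The 3′ end of Cbx7 shares 100 of its 6487 exon bases with Apobec3, a gene on the other strand. Apobec3 measured 22.6, 26.2 and 24.5 in MSC and 7.04, 6.14 and 12.1 in TAC. The use of strand in counting is not given in the sources used here, so reads from the shared bases cannot be told apart.

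Cbx2 (chr11:119022962-119031270, plus strand) measured 7.99, 10.7 and 3.51 in MSC and 21.7, 20.7 and 27.2 in TAC, in the order of replicates 1 to 3. The means were 7.40 ± 3.63 and 23.2 ± 3.51 (SD, n = 3), and the groups did not overlap, with TAC higher. The difference was 1.62 (SE 0.45, 95% interval 0.57 to 2.68), with an adjusted p of 0.205 by limma. Replicates 1 and 2 gave 1.11 and replicate 3 gave 2.64, and the adjusted p was 0.0463 by limma with the library set as a batch term. Over all alternatives it ran from 0.000727 to 0.656.

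Cbx8 lies 5034 bases from Cbx2 on chromosome 11 (chr11:119036305-119040969, minus strand). It measured 5.76, 5.88 and 35.2 in MSC and 7.71, 6.93 and 15.7 in TAC. Replicate 3 was the highest library of each group, and the groups overlapped. The difference was −0.18 (SE 0.73, 95% interval −1.90 to 1.54), with an adjusted p of 0.963 by limma. Its direction turned between library sets, from 0.29 in replicates 1 and 2 to −1.12 in replicate 3.

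RING1 and RNF2 are the paralogous ubiquitin ligases of PRC1. Ring1 (chr17:34020792-34024680, minus strand) measured 22.7, 20.5 and 28.7 in MSC and 11.6, 11.2 and 24.2 in TAC. TAC replicates 1 and 2 were low, while TAC replicate 3 lay within the MSC range. The difference was −0.65 (SE 0.39, 95% interval −1.57 to 0.27), with an adjusted p of 0.577 by limma. The library sets gave −0.86 (replicates 1 and 2, adjusted p = 0.000978 by limma) and −0.24 (replicate 3), and over all alternatives the adjusted p ran from 0.000978 to 0.888.

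Rnf2 (chr1:151458004-151500955, minus strand) measured 10.8 and 9.10 in the first MSC libraries and had no read in MSC replicate 3, against 14.8, 13.4 and 8.66 in TAC. Without replicate 3 both TAC libraries were above both MSC libraries, by 0.46 on the log2 scale. The pooled difference was 1.40 (SE 0.95, 95% interval −0.84 to 3.63), with an adjusted p of 0.633 by limma. It rests on MSC replicate 3 and on the pseudocount, being 0.25 without that library, 0.55 with a pseudocount of 8, 2.03 with one of 0.25 and 7.36 by voom. The value in replicate 3, 3.26, depends on the pseudocount too. Rnf2 shares 158 of its 4127 exon bases with Trmt1l on the other strand.

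BMI1 (PCGF4) is a partner of the ligases and is known for keeping stem cells dividing by silencing Cdkn2a. Bmi1 (chr2:18677018-18686629, plus strand) measured 16.2, 15.7 and 63.4 in MSC and 26.3, 24.4 and 21.8 in TAC. MSC replicate 3 held the highest level, whereas the other MSC libraries held the lowest. The pooled difference was −0.08 (SE 0.55, 95% interval −1.35 to 1.20), with an adjusted p of 0.980 by limma. Replicates 1 and 2 gave 0.64, with TAC higher, and replicate 3 gave −1.50, so the direction of Bmi1 rests on which libraries are read.

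EZH2 is the methyltransferase of PRC2 that is typical of dividing cells, and EZH1 is its paralogue with weaker activity, found also in resting cells. Ezh1 (chr11:101191115-101226463, minus strand) measured 51.3, 46.0 and 62.7 in MSC and 22.7, 23.0 and 29.7 in TAC. The means were 53.3 ± 8.54 and 25.1 ± 3.96 (SD, n = 3), 2.12 times higher in MSC, with no overlap. The difference was −1.06 (SE 0.27, 95% interval −1.70 to −0.41), with an adjusted p of 0.188 by limma. Replicates 1 and 2 gave −1.06 and replicate 3 gave −1.05, the closest match of the 9 genes between the library sets, and the adjusted p was 0.00865 by limma with the library set as a batch term. Over all alternatives it ran from 3.27e-05 to 0.675.

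Ezh2 (chr6:47530139-47595341, minus strand) measured 32.0, 25.4 and 8.75 in MSC and 66.8, 67.9 and 15.2 in TAC. Replicate 3 was the lowest library of each group, and TAC replicate 3 fell below MSC replicates 1 and 2, so the groups overlapped. Within each library set TAC was higher, by 1.21 for replicates 1 and 2 and by 0.74 for replicate 3. The pooled difference was 1.05 (SE 0.70, 95% interval −0.58 to 2.69), with an adjusted p of 0.617 by limma. It was 0.52 without MSC replicate 3, 0.70 without TAC replicate 2 and 1.74 without TAC replicate 3. With the library set as a batch term the adjusted p was 0.0215 by limma, and over all alternatives it ran from 3.13e-05 to 0.903.

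SUZ12 is the core PRC2 subunit that stabilises the enzyme. Suz12 (chr11:79993106-80034123, plus strand) measured 22.1, 22.7 and 23.0 in MSC and 29.5, 31.8 and 40.8 in TAC. The means were 22.6 ± 0.50 and 34.0 ± 5.96 (SD, n = 3), and every TAC library was above every MSC library. The difference was 0.56 (SE 0.27, 95% interval −0.09 to 1.20), with an adjusted p of 0.489 by limma. The library sets gave 0.43 (replicates 1 and 2) and 0.80 (replicate 3).

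**Figure D2:**
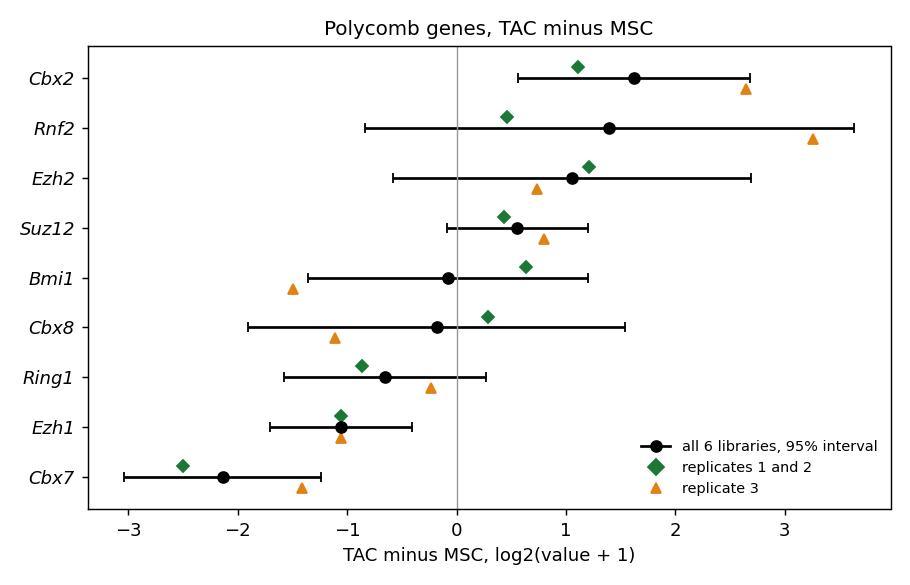
Difference TAC minus MSC of log2(value + 1) for the 9 Polycomb genes, with black points and 95% intervals for all 6 libraries, green diamonds for replicates 1 and 2 and orange triangles for replicate 3. Bmi1 (0.64 and −1.50) and Cbx8 (0.29 and −1.12) lie on opposite sides of 0 in the library sets, and Ezh1 lies at the same place in both.

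The number of members that passed differed with how the library sets were handled. With the library set as a batch term, 4 members passed an adjusted p of 0.05 (Cbx2, Cbx7, Ezh1 and Ezh2), beside 11.8% of all genes. In replicates 1 and 2 alone 7 passed (all but Rnf2 and Cbx8), beside 44.2%, a fit with 2 closely alike libraries a group. With the replicate number as a block, 0 members passed after adjustment and 5 had an unadjusted p under 0.05 (Cbx2, Cbx7, Ezh1, Ezh2 and Suz12), beside 20.4%. The same direction in both library sets was seen for 7 members, against 61.2% of all genes. The difference between the sets passed an adjusted p of 0.05 for 6 members, beside 57.2%, in a test where replicate 3 is 1 library a group.

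Genes of the dividing cell were read beside Cbx2, Ezh2 and Suz12. Of 20 S-phase genes, 16 had an unadjusted p under 0.05 with TAC higher, 0 passed after adjustment by limma, and the median difference was 1.39. Their summed value was 223 to 244 in MSC and 553 to 720 in TAC. All 12 mitosis genes had such a p, with a median of 2.06, and only Cdk1, which drives entry into mitosis, passed after adjustment. Their sum was 131 to 222 in MSC and 384 to 1086 in TAC. Mki67, the proliferation marker, measured 137, 130 and 41.5 in MSC and 593, 630 and 122 in TAC. With the replicate number as a block, Mcm2, Mki67 and Birc5 also passed an adjusted p of 0.05 by limma. With the library set as a batch term 15 S-phase and 10 mitosis genes passed, beside 11.8% of all genes. The part of dividing cells in the values of Cbx2, Ezh2 and Suz12 was not tested.

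Markers of smooth muscle and pericytes were read beside Cbx7 and Ezh1. All 6 of these had an unadjusted p under 0.05 and 5 passed after adjustment, with a median difference of −3.89 and a summed value of 1018 to 1555 in MSC against 62.9 to 72.1 in TAC. Of 6 endothelial markers 2 had such a p, and their sum was 170 to 248 against 101 to 112. Of 6 macrophage markers 1 did, with sums of 58.8 to 117 and 34.2 to 92.9. Of 4 Schwann cell markers tested 1 did, and the sums over the 5 listed were 20.2 to 43.2 and 6.09 to 19.2. With the replicate number as a block the smooth muscle marker Acta2 no longer passed (adjusted p = 0.0701 by limma). With the library set as a batch term all 6 smooth muscle and pericyte markers passed. The part of smooth muscle, pericytes, endothelium, macrophages and Schwann cells in the values of Cbx7 and Ezh1 was not tested.

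Markers of the labelled tissue and of its neighbours were also read. Dental mesenchyme markers gave 509 to 532 in MSC and 563 to 655 in TAC for 8 genes, with 2 higher in each direction at an unadjusted p under 0.05. The summed value of 6 odontoblast markers was 2317 in MSC replicate 3 and 12460 to 15880 in the other 5 libraries, with 0 at an unadjusted p under 0.05. For 9 dental epithelium markers the sum was 300 in MSC replicate 3, where the markers without a read included Krt17, Epcam and Cdh1, and 2157 to 3659 in the others, with 2 higher in TAC at an unadjusted p under 0.05. For 5 erythroid markers it was 37.2 to 79.0 in all libraries, with 0 at such a p. In MSC replicate 3 the odontoblast markers Dspp, Col1a1 and Phex were low and Dmp1 and Ibsp had no read, and the enamel genes Amelx, Ambn and Enam were low, whereas Bglap (279 against 181 and 172), Krt14 (16.0 against 12.9 and 8.84) and Krt5 (15.0 against 7.75 and 10.2) were higher in it than in the other MSC libraries. The part of these cells in the high Bmi1 and Cbx8 values of MSC replicate 3 was not tested.

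Per length of exon, the rank order of the members differed between the regions. Levels per kilobase (kb) of exon were read with GENCODE exon lengths. In MSC the highest were Bmi1 (7.99 ± 6.90 normalized reads per kb, SD, n = 3), Cbx7 (7.78 ± 0.805), Ring1 (7.38 ± 1.32) and Ezh1 (7.16 ± 1.15), which lay within 1 SD of each other. Suz12 (4.57 ± 0.101), Cbx8 (4.25 ± 4.62) and Ezh2 (3.30 ± 1.79) followed, again within their spread, and Cbx2 (1.74 ± 0.852) and Rnf2 (1.61 ± 1.41) were the lowest.

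In TAC, Ezh2 (7.49 ± 4.51) and Suz12 (6.88 ± 1.21) had the highest levels per kb and did not differ beyond their spread, nor did Bmi1 (6.08 ± 0.569), Cbx2 (5.45 ± 0.825) and Ring1 (4.83 ± 2.28), the next in order. Ezh1 (3.37 ± 0.532), Rnf2 (2.98 ± 0.779) and Cbx8 (2.75 ± 1.32) came next, within their spread, and Cbx7 (1.77 ± 0.910) was last. In replicates 1 and 2 alone Cbx7 was the highest of the 9 in MSC (7.79) and the lowest in TAC (1.24), and Ezh2 was the highest in TAC (10.1). Bmi1 stood at rank 6 in MSC in these libraries. Replicate 3 had another order: Cbx7 (7.74) was at rank 5 in MSC, behind Bmi1 (16.0), Cbx8 (9.58), Ring1 (8.85) and Ezh1 (8.42). In TAC replicate 3 Suz12 (8.25) was the highest, and Cbx7 (2.81) lay above Ezh2 (2.28) at rank 8.

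**Figure D3:**
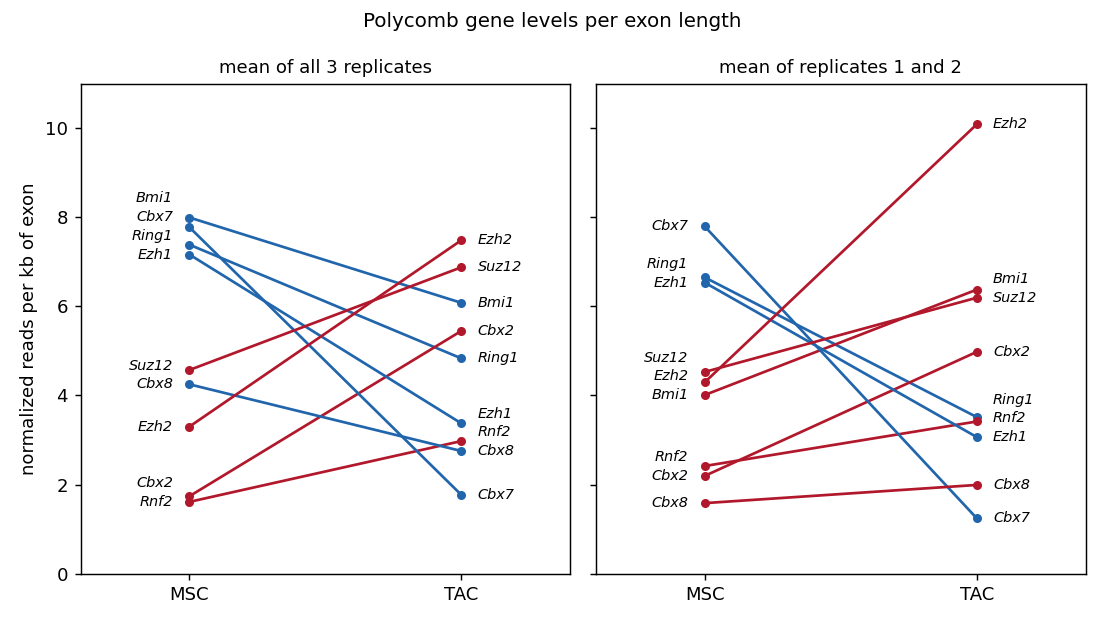
Mean level per kb of exon of the 9 Polycomb genes in MSC and TAC, for all 3 replicates (left) and replicates 1 and 2 (right), with red lines for genes whose mean is higher in TAC and blue for MSC. Cbx7 is at rank 2 (left) and 1 (right) in MSC and the lowest in TAC, and Ezh2 is the highest in TAC in both panels, which share replicates 1 and 2, whereas in TAC replicate 3 alone (not drawn) Cbx7 and Ezh2 are at ranks 7 and 8.

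Partner genes were also compared as ratios within a library. For 6 pairs the log2 ratio, with 1 added to each value, was compared by an exact two-sided permutation test over samples, in which 3 against 3 cannot give a p below 0.1. Cbx2 to Cbx7 was −2.66, −1.99 and −3.50 in MSC and 1.42, 1.17 and 0.55 in TAC. Cbx7 was thus the more counted of the pair in every MSC library and Cbx2 in every TAC library. The means differed by 3.76 (−2.72 ± 0.76 against 1.05 ± 0.45, SD, n = 3, exact permutation p = 0.1, 0.2 after adjustment over the 6 pairs). It was 3.62 for replicates 1 and 2 and 4.05 for replicate 3.

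Ezh2 to Ezh1 was −0.66, −0.83 and −2.71 in MSC and 1.52, 1.52 and −0.92 in TAC. TAC replicate 3 lay among the MSC libraries, and the exact permutation p was 0.3 (0.36 adjusted) for a difference of 2.11. Within the library sets the difference was 2.27 (replicates 1 and 2) and 1.79 (replicate 3). Cbx8 to Cbx7 was higher in every TAC library, by 1.96 (exact permutation p = 0.1, 0.2 adjusted), mostly in replicates 1 and 2 (2.79, against 0.30 in replicate 3).

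Suz12 to Eed was also higher in every TAC library, by 1.32 (exact permutation p = 0.1, 0.2 adjusted), mostly in replicate 3 (3.26, against 0.35 in replicates 1 and 2). Rnf2 to Ring1 differed by 2.05 with overlap (exact permutation p = 0.3, 0.36 adjusted), and was 1.33 in replicates 1 and 2, 0.77 without MSC replicate 3, in which Rnf2 had no read, and 1.02 with a pseudocount of 8. Bmi1 to its paralogue Pcgf2 differed by 0.0015 (exact permutation p = 1), with opposite values of 0.81 in replicates 1 and 2 and −1.62 in replicate 3.

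**Figure D4:**
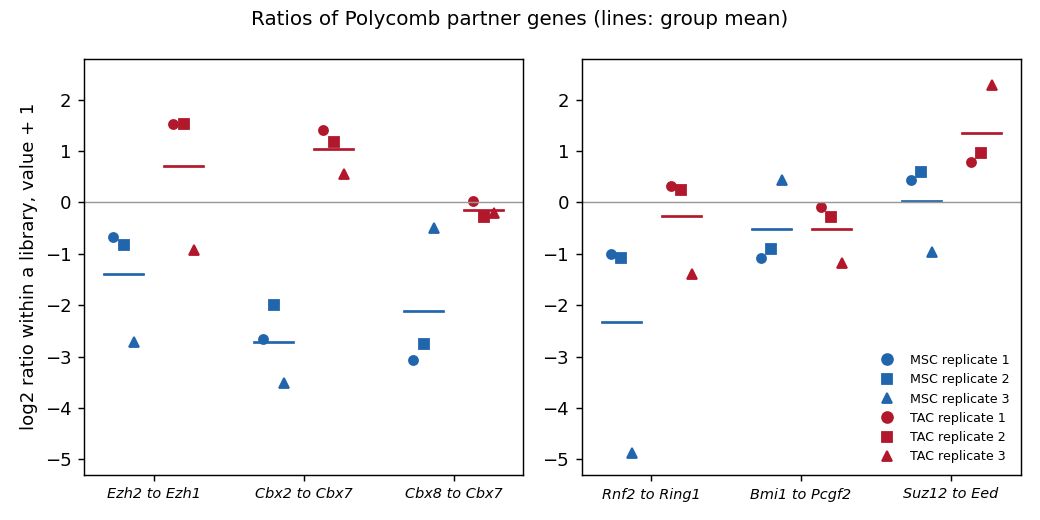
Log2 ratio of 6 pairs of Polycomb genes within each library (1 added to each value), MSC in blue and TAC in red, with markers for replicates 1 to 3 and lines at the group means. Cbx2 to Cbx7 lies below 0 in all MSC libraries and above 0 in all TAC libraries, while Ezh2 to Ezh1 does so only in replicates 1 and 2.

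Of 41 other Polycomb genes on the list, 40 were listed in the table and tested. With limma 0 passed an adjusted p of 0.05, beside 0.422% of all genes. At an unadjusted p under 0.05, 2 were higher in TAC and 1 in MSC, beside 5.42% and 6.43% of all genes. Of the differences 17 were above and 23 below 0, with a median of −0.06. Rbbp4, the histone-binding subunit of PRC2 that also serves chromatin assembly, measured 39.1, 39.3 and 19.9 in MSC and 62.9, 62.9 and 116 in TAC (difference 1.28, SE 0.39, adjusted p = 0.264 by limma). E2f6, the DNA-binding repressor of a variant PRC1, measured 10.1, 11.1 and 4.24 in MSC and 17.0, 17.0 and 19.7 in TAC (difference 1.08, SE 0.44, adjusted p = 0.393 by limma). Both were thus higher in every TAC library, as were 3 of the 40 genes in all, beside 12.3% of all genes tested.

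Phf1, an accessory PRC2 subunit that reads methylated histone H3, measured 32.0, 34.6 and 87.7 in MSC and 6.31, 6.40 and 23.4 in TAC. Its difference of −2.10 (SE 0.61) was of the size of that of Cbx7, with an adjusted p of 0.231 by limma, and 0.0442 by limma with the replicate number as a block (3.31e-06 to 0.681 over all alternatives). It was higher in every MSC library, as were 4 of the 40 other Polycomb genes in all, beside 12.2% of all genes tested.

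Pcgf2, a paralogue of Bmi1, measured 35.1, 30.4 and 46.3 in MSC and 27.9, 29.8 and 50.5 in TAC, with overlap (difference −0.08, adjusted p = 0.967 by limma). Eed, the PRC2 subunit that binds the mark, measured 16.0, 14.7 and 46.0 in MSC and 16.7, 15.9 and 7.54 in TAC, apart only in replicate 3 (difference −0.76, adjusted p = 0.647 by limma). Cbx6, a further CBX gene, 81118 bases from Cbx7 on chromosome 15, measured 85.4, 79.6 and 70.5 in MSC against 54.7, 56.8 and 57.3 in TAC (difference −0.47, adjusted p = 0.501 by limma). Its values, like those of Cbx7, were higher in every MSC library.

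By kind, the 22 other PRC1 genes had a median difference of −0.11 with 1 at an unadjusted p under 0.05 (E2f6). The 10 other PRC2 genes tested had a median of 0.07 with 2 (Rbbp4 and Phf1), and the 8 genes of the Polycomb deubiquitinase complex (PR-DUB), which removes the mark of PRC1, had a median of 0.08 with 0. Of 12 trithorax-type genes, which oppose Polycomb, 1 had such a p (Kdm6a, a demethylase of the PRC2 mark, −1.07), and the median was −0.03. In all 4 kinds 0 genes passed after adjustment by limma. Over all genes 11.9% had an unadjusted p under 0.05, and 0.422% passed after adjustment.

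**Figure D5:**
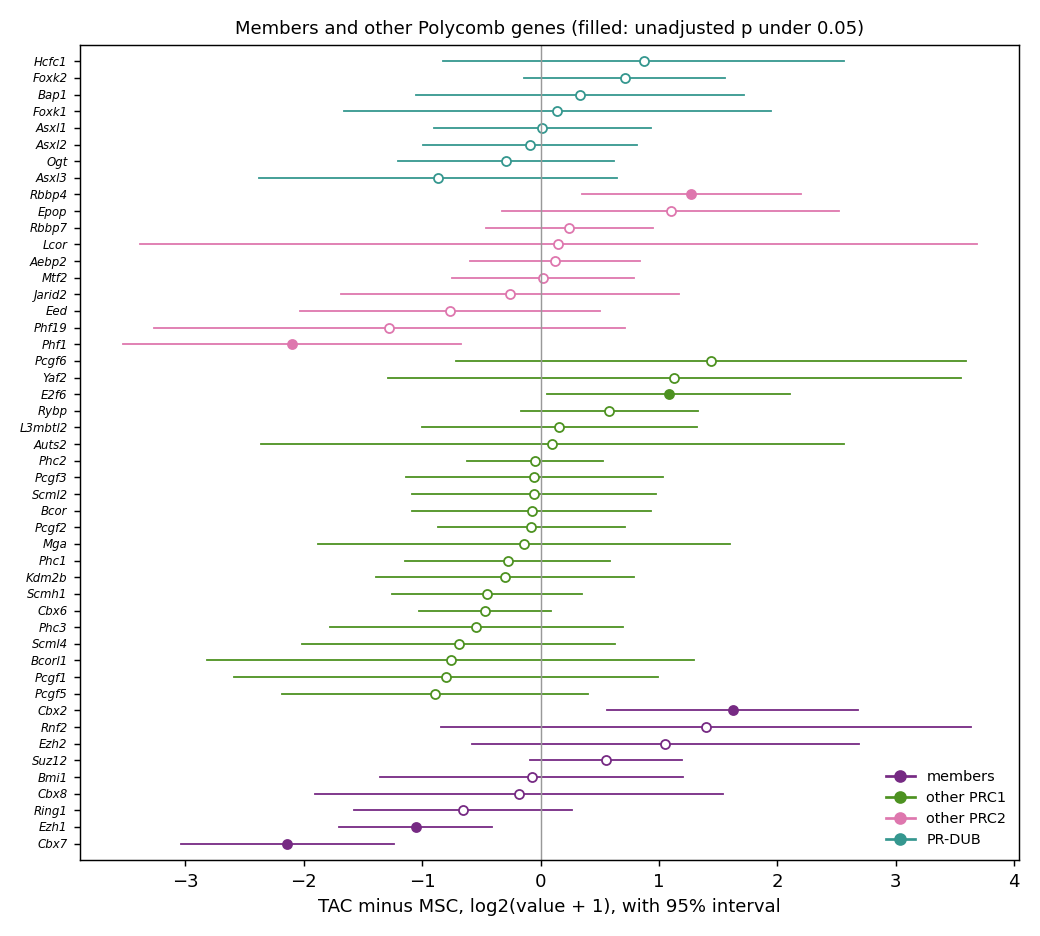
Difference TAC minus MSC of log2(value + 1) with 95% intervals for the 9 members (purple), 21 of the other PRC1 genes (green), 10 other PRC2 genes (pink) and 8 PR-DUB genes (teal), each sorted by value, with filled points at an unadjusted p under 0.05. Cbx7, Ezh1 and Phf1 are filled on the MSC side, and Cbx2, Rbbp4 and E2f6 on the TAC side.

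Targets of the complexes were mostly near the lower limit of the table. Of 39 Hox genes 8 were listed and 0 had a mean of at least 1, and the highest values were 3.53 for Hoxb4 in MSC replicate 3, 1.92 for Hoxd8 and 0.927 for Hoxd4. Cdkn2a, which encodes the cell cycle inhibitor and tumour suppressor that BMI1 silences, was at most 0.384 in any library. Cdkn2b, its neighbour, was 0.320, 0.174 and without a read in MSC and 2.28, 1.39 and 1.57 in TAC, and neither gene entered the test. Cdkn1a, an inhibitor of cyclin-dependent kinases, measured 9.43, 10.8 and 8.66 in MSC and 11.7, 12.9 and 29.3 in TAC (difference 0.72, adjusted p = 0.586 by limma). Cdkn1c, an imprinted gene for another such inhibitor, measured 39.4, 44.2 and 7.53 in MSC and 21.1, 21.8 and 5.31 in TAC (difference −0.76, adjusted p = 0.767 by limma). Zic1 and Zic2 were not analysed here.

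Over the 6 libraries on the log2 scale, the genes most like Ezh2 included Ccdc180 (Pearson r = 0.997), Kif20b and Hsp90ab1 (0.995 each). Those most like Cbx7 were Igfbp5 (0.997), Prpf40b (0.994), Slc25a12 (0.992), Crispld2 and Tfeb (0.991 each). Igfbp5, which encodes an IGF binding protein, measured 336, 316 and 292 in MSC and 31.7, 31.9 and 84.6 in TAC, with the same raised TAC replicate 3 as Cbx7. Kif20b, a mitotic kinesin, measured 10.6, 10.4 and 0.353 in MSC and 45.6, 52.2 and 2.79 in TAC, with both replicate 3 libraries low as in Ezh2. Among the members themselves Cbx7 and Ezh1 were most alike (r = 0.971) and Ring1 and Ezh2 most opposed (−0.942). These correlations are descriptions over 6 libraries that share the group and the library set.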

How the data were processed

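RNA-seq reads of 3 MSC and 3 TAC samples were trimmed by the authors, aligned to mm10 with TopHat 2.0.8 and, by their methods, normalized as RPKM. The submitters' processing notes also name CASAVA 1.8.2 and Partek. The counting tool is not given in the sources used here. The values do not have the form of RPKM. Genes of all lengths had the lowest value of a library in common, and 68.4 to 73.9% of values under 200 reads were whole multiples of it within 0.05 reads. The deposited unit was thus taken to be a signal, read number plus 1 over a factor per library. Estimated reads are the value over the lowest value, minus 1. Since they were partly fractional, no count model was the main test.

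limma 3.58.1 in R 4.3.3 (empirical Bayes with trend) was fitted to log2(value + 1) of 15391 genes with a mean of at least 1. Tests were two-sided, with Benjamini-Hochberg adjustment over all genes. A pseudocount of 1 understates differences of low genes. Ratios used scipy 1.17.1. The test had been planned for RPKM and was kept for this unit. P-values measure the spread between these samples, which the methods give as 3 mice a group. Same-numbered samples deviated together (correlations of 0.477, 0.465 and 0.517 over genes), and the methods speak of pairs, but replicates 1 and 2 correlated as well across numbers (0.462 and 0.480), so the block is given as an alternative. The fit was first run on simulated data that held no difference between library sets, so this check does not cover the spread that replicate 3 adds. Of 200 genes changed 2-fold it called 85, with 87 calls in all. Of 200 genes changed 4-fold it called 200, with 213 calls in all.

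The members and lists were chosen with earlier results of these data known. Named genes were all members, Pcgf2, Cbx6 and Eed, other Polycomb genes at an unadjusted p under 0.05 (at most 3 in each direction), preset targets, Mki67, and the 5 genes most correlated with Ezh2 and with Cbx7. Gene positions are those of the table, and overlaps and exon lengths come from GENCODE M21. Protein comparisons were not made here, and some genes that the rule names are not reported here. Alternatives were pseudocounts of 0.25 and 8, filters, scalings, variance models, voom, the replicate block, library sets and leaving out each sample. The batch term, and the alternatives of the counts at an unadjusted p, were added after seeing the data.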

Additional observations from a re-analysis of the deposited data

Results flagged for a closer look

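For 6 members the interaction of group and library set (replicates 1 and 2 against replicate 3) in limma had an adjusted p under 0.05. It was 5.76e-05 for Bmi1 and 0.00268 for Cbx8, whose directions turned, and 0.0307 for Ring1, 0.00024 for Rnf2, 0.00246 for Cbx2 and 0.00418 for Cbx7, whose directions did not. The same test called 57.2% of all genes. Replicate 3 is 1 library a group, and the spread used is that between the closely alike replicates 1 and 2, so the p-values assume that replicate 3 varies as little, and nothing particular to the members is read from them. The library sets are not groups of the study. Replicate 3 also differed in depth and in mitochondrial ribosomal RNA, whose part in these differences was not tested.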

How the results depend on the processing

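The count of members at an adjusted p under 0.05 was 0 in the fit of all 6 libraries and stayed 0 under both pseudocounts, both filters, both scalings, both variance models and voom. It became 7 in replicates 1 and 2 only and 4 with the library set as a batch term, and ranged from 0 to 1 when each sample was left out (Cbx7 passed without TAC replicate 3). The replicate block gave 0 for the members. Members at an unadjusted p under 0.05 numbered 3 (beside 11.9% of all genes), and 5 with the replicate block (20.4%), 4 with voom (23.6%), 8 in replicates 1 and 2 (51.9%), 6 with the batch term (29.6%) and 3 to 5 with a sample left out (6.68 to 20.2%). Of 40 other Polycomb genes, those called went from 0 to 1 with the replicate block (Phf1). They were 20 in replicates 1 and 2, beside 44.2% of all genes, and 5 with the batch term, beside 11.8%. The block changed no other call among the members and other Polycomb genes. Calls over all genes went from 65 to 38 with a pseudocount of 0.25, 114 with quantile normalization, 29 without the variance trend, 21 with voom, 229 with the replicate block, 6796 in replicates 1 and 2, 1814 with the batch term, and 0 to 292 with a sample left out. They were 0 without replicate 1 or 2 of either group (1028 to 1367 genes at an unadjusted p under 0.05 by limma), 292 without MSC replicate 3 and 36 without TAC replicate 3.

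Reversals were seen in Bmi1 (0.64 in replicates 1 and 2, and −0.41 to 0.57 with a sample left out), Cbx8 (0.29 in replicates 1 and 2, and −0.59 to 0.62) and the Bmi1 to Pcgf2 ratio (−0.041 with a pseudocount of 8, −1.62 in replicate 3, and −0.28 to 0.48 with a sample left out). With a sample left out, the highest Bmi1 and Cbx8 values were those without MSC replicate 3. The cause was not tested. The other members and ratios kept their direction under every alternative run. For the members, the filters, variance models, replicate block and batch term left the difference itself unchanged, so these could not turn it. The median of all genes was 0.03 in the fit of all 6 libraries, 0.10 with voom and −0.05 in replicates 1 and 2. Replicate 3 alone gives values with no test.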
